A study of Mus musculus with 4 samples.

Results

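The spots described here were those richest in the transcripts of 4 genes, Krt19, Krt7, Cftr and Sox9, in sections of mouse pancreas with acute pancreatitis. They were chosen by these same transcripts. In each section, every capture spot with at least 500 unique molecular identifiers (UMIs, each marking 1 captured molecule) was scored by the summed UMIs of the 4 genes divided by its total. The 200 highest-scoring spots with at least 2 such UMIs were taken. This gave 800 spots of the 56869 listed in the 4 sections, and 26240 other spots of at least 500 UMIs were left to compare them with. A capture spot is a small region of the slide that can hold several cells of different types, or part of one.

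Spatial transcriptomics was performed on formalin-fixed, paraffin-embedded pancreas of C57Bl/6 mice, 2 of genotype Pdx1-Cre;Ehmt2 +/+ and 2 of genotype Pdx1-Cre;Ehmt2 fl/fl, with 1 section for each labelled animal. The study's methods give an age of 4 weeks at the induction of pancreatitis and the use of both sexes. All animals carried the Pdx1-Cre transgene and all received 8 hourly intraperitoneal injections of caerulein at 50 µg/kg, with tissue taken 18 h after the first, so no section of an uninjured pancreas entered the comparison. Ehmt2 encodes a methyltransferase for lysine 9 of histone H3. The Pdx1 promoter drives Cre in the epithelial lineages of the pancreas (acinar, duct and islet cells), and stromal and immune cells in the same spots keep the gene. Each slide held 1 section of each genotype, with the replicates numbered 1 on slide 1 and those numbered 2 on slide 2. Ehmt2 itself was measured at 22 and 1 UMIs in the chosen spots of the Ehmt2 +/+ sections and at 2 and 5 UMIs in those of the Ehmt2 fl/fl sections. In UMIs per 1000000 of the same spots (CPM) these were 25.2, 5.56, 10.5 and 24.4, and the genotypes overlapped. Whether the Ehmt2 probes lie in the deleted part of the gene was not analysed here, so these values do not check the labels.

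Pancreatic ducts carry acinar secretions to the gut and add fluid and bicarbonate to them. Krt19 and Krt7 encode keratins of simple epithelia, Cftr encodes the chloride and bicarbonate channel of the apical duct membrane, and Sox9 encodes a transcription factor of ducts and of pancreatic progenitors. In injured pancreas the set is known to lose its specificity, because acinar cells undergoing acinar-to-ductal metaplasia switch on the same keratins and Sox9. In GRCm38 coordinates, Krt19 (ENSMUSG00000020911) lies at chr11:100140810-100148665 on the minus strand and Krt7 (ENSMUSG00000023039) at chr15:101411043-101430313 on the plus strand. Cftr (ENSMUSG00000041301) lies at chr6:18170687-18322768 and Sox9 (ENSMUSG00000000567) at chr11:112782224-112787760, both on the plus strand.

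Few molecules stood behind each choice. The median chosen spot held 3 UMIs of the 4 genes in Ehmt2 +/+ replicate 1 and 2 UMIs in each of the other sections. In Ehmt2 +/+ replicate 2, 159 of the 200 spots rested on exactly 2 UMIs, against 72 in Ehmt2 +/+ replicate 1, 126 in Ehmt2 fl/fl replicate 1 and 133 in Ehmt2 fl/fl replicate 2. Spots with UMIs of more than 1 of the 4 genes numbered 92 and 73 in the Ehmt2 +/+ sections and 110 and 125 in the Ehmt2 fl/fl sections. At the edge of the choice the scores ran on without a gap. The last spot taken and the first left out scored 6.438 and 6.436 UMIs per 10000 in Ehmt2 +/+ replicate 1, and 17.26 and 17.18 in Ehmt2 +/+ replicate 2. In the Ehmt2 fl/fl sections the same pairs were 19.70 and 19.69 in replicate 1 and 17.63 and 17.56 in replicate 2.

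The sections differed in depth. Total UMIs were 44520453 in Ehmt2 +/+ replicate 1 and 8914187 in Ehmt2 +/+ replicate 2, against 7195548 and 8685493 in Ehmt2 fl/fl replicates 1 and 2. The chosen spots of Ehmt2 +/+ replicate 1 had a median of 3762.5 UMIs (other spots, 6461), and those of the other sections had 868.5 (877), 926 (993) and 993.5 (1132). As a measure of background, the 1135 olfactory receptor genes, which pancreas does not use, averaged 0.400, 5.46, 8.20 and 13.03 CPM per gene in the chosen spots, in the order Ehmt2 +/+ replicates 1 and 2 and Ehmt2 fl/fl replicates 1 and 2, which is kept below. A gene near these levels in the 3 shallower sections cannot be told from background. In the other spots the olfactory receptor genes averaged 0.273, 5.14, 8.69 and 12.68 CPM per gene. In Ehmt2 +/+ replicate 1 this background was thus itself higher in the chosen spots. Its part in the ratios given below for that section was not tested. Spot barcodes mark slide positions and are reused on every slide. Between pairs of sections 0 to 6 of the 200 chosen barcodes were shared. The image alignments mark 5818, 9915, 7549 and 7653 positions as tissue, and the rule did not use these marks. In Ehmt2 +/+ replicate 1 the marks were fewer than the 6147 spots of at least 500 UMIs. Some chosen or other spots of that section therefore lay outside the marked tissue.

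The marker values, which the rule used, were 3.61 to 10.3 times higher in the chosen spots than in the other spots for Krt7 and 4.16 to 8.99 times higher for Krt19. Krt19 stood at 655, 1968, 1016 and 835 CPM in the chosen spots and at 158, 219, 141 and 115 CPM in the other spots. Krt7 stood at 147, 395, 1367 and 1319 CPM in the chosen spots and at 40.6, 38.4, 159 and 172 CPM in the others. Sox9 gave 20, 16, 29 and 37 UMIs in the chosen spots, and Cftr 1, 8, 5 and 10. The choice rested mainly on the keratins. Krt19 made up 79.3%, 78.8%, 39.7% and 35.0% of the chosen spots' marker UMIs and Krt7 17.8%, 15.8%, 53.4% and 55.3%.

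Krt19 and Krt7 were not measurably richer in spots chosen by the other markers, and Sox9 and Cftr had too few UMIs to settle it. When spots were chosen by the same rule from the other 3 markers, the left-out Krt19 was at 0.916 (95% exact Poisson interval 0.803 to 1.04), 0.507 (0.138 to 1.30), 1.04 (0.744 to 1.41) and 0.9998 (0.688 to 1.40) times its share in the remaining spots. The second of these rests on 22 spots and 4 UMIs, since only 22 spots of that section qualified without Krt19. Krt7, left out in turn, was at 1.01 (0.724 to 1.38), 0.916 (0.419 to 1.74), 0.891 (0.601 to 1.27) and 0.818 (0.613 to 1.07) times. Sox9 was at 0.998, 1.17, 0.700 and 1.02 times on 7, 3, 4 and 7 UMIs, with intervals as wide as 0.242 to 3.43, and Cftr had 0 to 3 UMIs. Spots chosen by Krt19 alone held Krt7 at 0.974, 0.857, 0.843 and 0.897 times the level of the others. None of the intervals for Krt19, Krt7 or Sox9 lay apart from 1, and they cover counting error only.

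The same rule did find tissue structure with other genes in the same sections. Spots chosen by Ins1, an insulin gene of the islet beta cells, held the second insulin gene Ins2 at 165, 58.8, 127 and 108 times its share elsewhere. Spots chosen by Col3a1, a fibrillar collagen of fibroblasts, held Col1a2, another of these collagens, at 7.04, 1.90, 1.73 and 2.11 times. These pairs were picked after the marker result was seen. For Krt7 in Krt19-chosen spots, the upper ends of the intervals were 1.33, 1.63, 1.29 and 1.22. Each lay below the measured value of the collagen pair in its section. In Ehmt2 +/+ replicate 2, however, the interval of the collagen pair, 1.53 to 2.34, overlapped that of Krt7. In the reverse direction, Krt19 in Krt7-chosen spots had upper ends of 1.096, 2.43, 1.34 and 1.498. The second of these, on 11 spots and 2 UMIs, lay above the collagen value of that section, and the others lay below theirs.

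**Figure D1:**
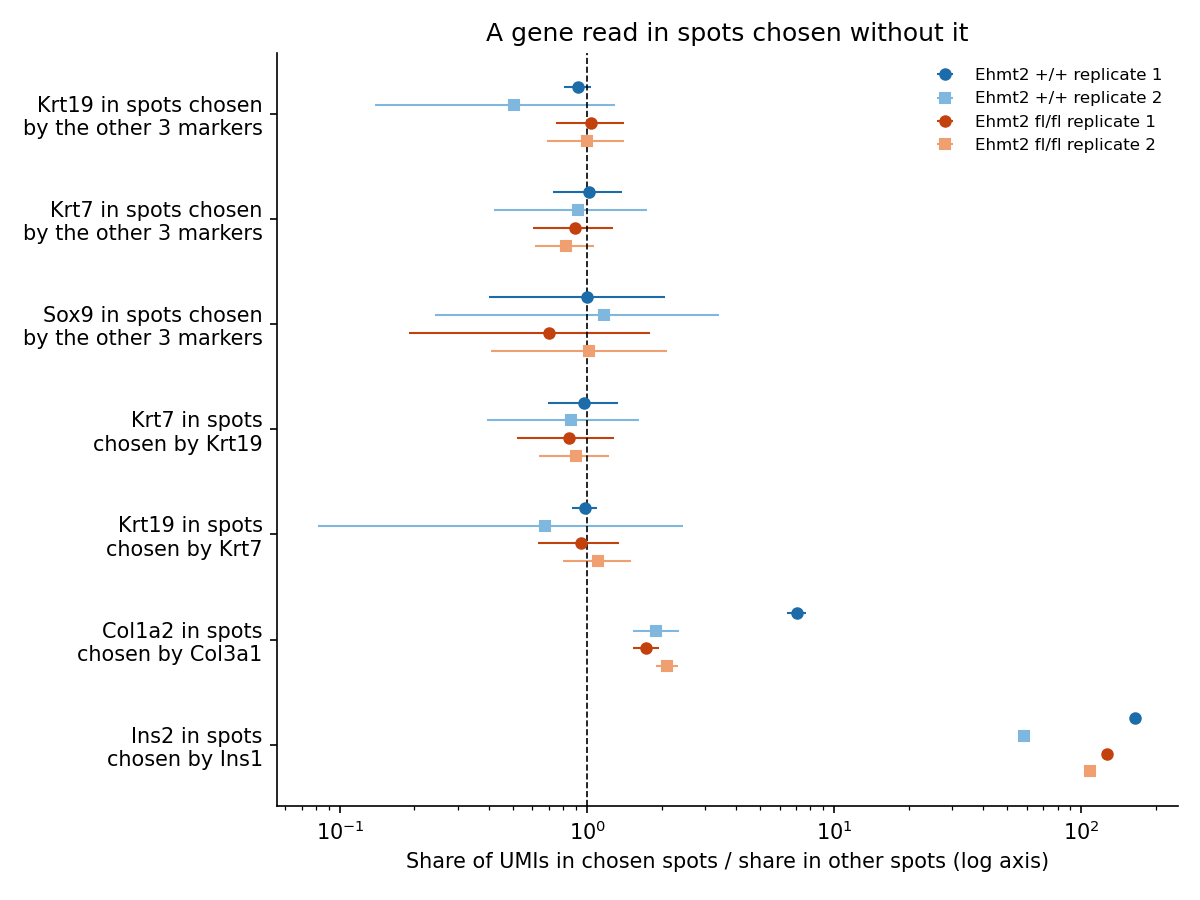
Each point gives, on a log axis, how much higher the UMI share of a gene was in spots chosen without it than in the other spots of the section, with 95% exact Poisson intervals and a dashed line at 1. The points for Krt19, Krt7 and Sox9 sit around 1 in all 4 sections, the collagen pair lies between 1.73 and 7.04, and the insulin pair between 58.8 and 165.

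The keratins thus did not bear out the label of duct spots, and the 800 spots are called marker-rich spots below. Other duct genes outside the rule differed little from the other spots. A list of 60 such genes, held out from the choice, took 2.21%, 1.81%, 2.49% and 1.96% of the UMIs in the marker-rich spots and 2.01%, 1.69%, 2.14% and 1.78% in the other spots, a mean difference of 0.15 ± 0.05 on the log2 scale (SD, n = 4 sections). The difference was 0.037 ± 0.19 when Krt19 was left out of the rule and 0.099 ± 0.071 when the digestive enzymes were left out of the total (SD, n = 4). Of the 36 held-out genes with at least 100 UMIs in every section, 12 were higher in the marker-rich spots in all 4 sections and 1 was lower. Over all 5856 genes of that depth outside the markers, 10.1% were higher and 4.63% lower in all 4. The median log2 ratio was 0.17 for the held-out genes and 0.01 for all genes. None of the 36 reached 1.5 times in every section, which 0.0342% of all genes did. These are descriptions of spots picked on their own counts, and no test was made of them.

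Among the epithelial genes, Krt8 and Krt18, the keratin pair shared by acinar and duct cells, were at 1.04, 1.03, 1.28 and 1.10 times and at 1.01, 1.09, 1.18 and 1.08 times the level of the other spots. Epcam, an epithelial adhesion molecule, was at 1.20, 1.05, 1.16 and 1.03 times. These abundant epithelial transcripts were therefore spread almost evenly between marker-rich and other spots. The claudins Cldn3, Cldn4 and Cldn7, which seal epithelial junctions, ranged from 0.825 to 1.44 times and each was higher in 3 of 4 sections.

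The genes of the primary cilium, which duct cells keep and acinar cells lack, had the highest mean ratio of the 5 held-out duct groups, 0.38 ± 0.10 on the log2 scale (SD, n = 4), though transport genes stood higher in Ehmt2 +/+ replicate 2 and Ehmt2 fl/fl replicate 1. The list of 9 was at 1.40, 1.19, 1.35 and 1.27 times, on 63, 27, 74 and 80 UMIs. Kif12, a kinesin motor, was at 2.88, 1.996, 1.92 and 1.47 times on 15, 5, 17 and 12 UMIs. Bicc1, an RNA-binding protein mutated in cystic kidney models, was at 1.70, 1.19, 2.04 and 1.43 times, and the polycystin gene Pkd2 at 1.14, 1.69, 1.13 and 1.28 times. These 3 lay above 1 in every section, on few molecules. Dcdc2a, a microtubule-binding protein, had 0 UMIs in Ehmt2 +/+ replicate 1 and was at 2.90, 2.09 and 1.97 times in the other sections. Pkhd1, Pkd1, Cys1, Prom1 and Ift88 each lay above 1 in 2 of 4 sections, on 1 to 10 UMIs a section, too few to read a direction for any of them.

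Duct transport genes stood at 1.01, 1.22, 1.40 and 1.24 times. Car2, the carbonic anhydrase that supplies bicarbonate, was at 1.04, 2.07, 1.65 and 1.246 times, and the water channel Aqp1 at 0.777, 1.31, 1.45 and 1.12 times. Among secreted and surface genes, Tm4sf4, of the L6 family of membrane proteins, was at 1.72, 2.35, 1.42 and 1.17 times, Tspan8, a tetraspanin, at 1.252, 1.53, 1.56 and 1.49 times, and Spp1, osteopontin, at 1.01, 1.24, 1.34 and 1.35 times. Clu, clusterin, made up most of the held-out UMIs and was at 1.12, 1.08, 1.12 and 1.05 times. Without Clu and Tff2 the held-out list gave 0.17 ± 0.10 (SD, n = 4). Tff2, a secreted trefoil peptide, was the held-out gene lower in every section, at 0.971, 0.996, 0.920 and 0.838 times. The duct transcription factors were at 1.05, 0.968, 1.12 and 1.27 times, with Hes1, a target of Notch signalling, higher in all 4 sections.

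The digestive enzymes of acinar cells showed how much acinar RNA the marker-rich spots held. They took 59.8%, 50.5%, 20.4% and 19.8% of UMIs in the marker-rich spots and 62.2%, 52.5%, 22.0% and 21.1% in the others, so the enzyme share was slightly lower in every section. The chymotrypsinogen gene Ctrb1 alone gave 305401, 50214, 25631 and 26702 UMIs there. The top of the ranking differed somewhat more. In the 20 highest-scoring spots of each section the enzymes took 56.0%, 42.5%, 14.4% and 16.4%, and the held-out duct genes without Clu and Tff2 were at 1.26, 1.003, 1.46 and 1.35 times the other spots, against 1.06, 1.09, 1.15 and 1.16 times at ranks 101 to 200. The top 20 spots thus stood higher than ranks 101 to 200 in every section but Ehmt2 +/+ replicate 2.

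Islet genes stood further above the other spots than any duct group in 3 of 4 sections, at 2.17, 1.43, 1.09 and 1.53 times. Gcg, the glucagon gene of alpha cells, was at 1.92, 1.56, 2.55 and 1.40 times, and Chga, a granin of endocrine granules, at 2.39, 1.72, 1.52 and 1.502 times. Sst, somatostatin, was at 2.82, 1.02, 0.714 and 0.624 times on 60, 7, 5 and 3 UMIs. Of the 200, 158, 200 and 174 spots chosen by Ins1, 9, 4, 9 and 10 were also marker-rich. Marker-rich spots made up 3.25%, 2.53%, 3.08% and 3.08% of all spots with at least 500 UMIs, and the overlap was not tested. The part of islet cells in the values above was not tested.

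Genes of other cell types differed in direction. Endothelial genes were higher in all 4 sections, at 1.09, 1.09, 1.11 and 1.15 times, a mean of 0.15 ± 0.04 on the log2 scale (SD, n = 4) that was as large as that of the held-out duct list. Smooth muscle genes stood at 1.63, 1.03, 1.30 and 1.35 times on 18, 8, 35 and 32 UMIs. The 10 genes of the mesothelium, the Krt19-positive and Krt7-positive lining of the organ surface, gave 5, 21, 37 and 29 UMIs in the marker-rich spots and stood at 0.793, 1.64, 1.57 and 0.800 times the other spots, with 7 of the 10 at 0 in Ehmt2 +/+ replicate 1. Msln, mesothelin, had 3, 4, 14 and 5 UMIs and Upk3b, a uroplakin, led them in Ehmt2 fl/fl replicate 2 with 6. Fibroblast genes stood at 1.46, 1.12, 1.07 and 0.867 times and macrophage genes at 1.43, 0.876, 0.893 and 1.03 times. The epithelial injury genes, with Cd44, a hyaluronan receptor, and the annexins Anxa2 and Anxa3, were at 1.29, 1.23, 1.08 and 1.19 times. Of the 16, 7 were higher in all 4 sections, against 10.1% of the 5856 genes with at least 100 UMIs in every section. Some of the 16 did not reach that depth. The annexin gene Anxa1 was lower in all 4, on 4, 0, 4 and 5 UMIs.

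**Figure D2:**
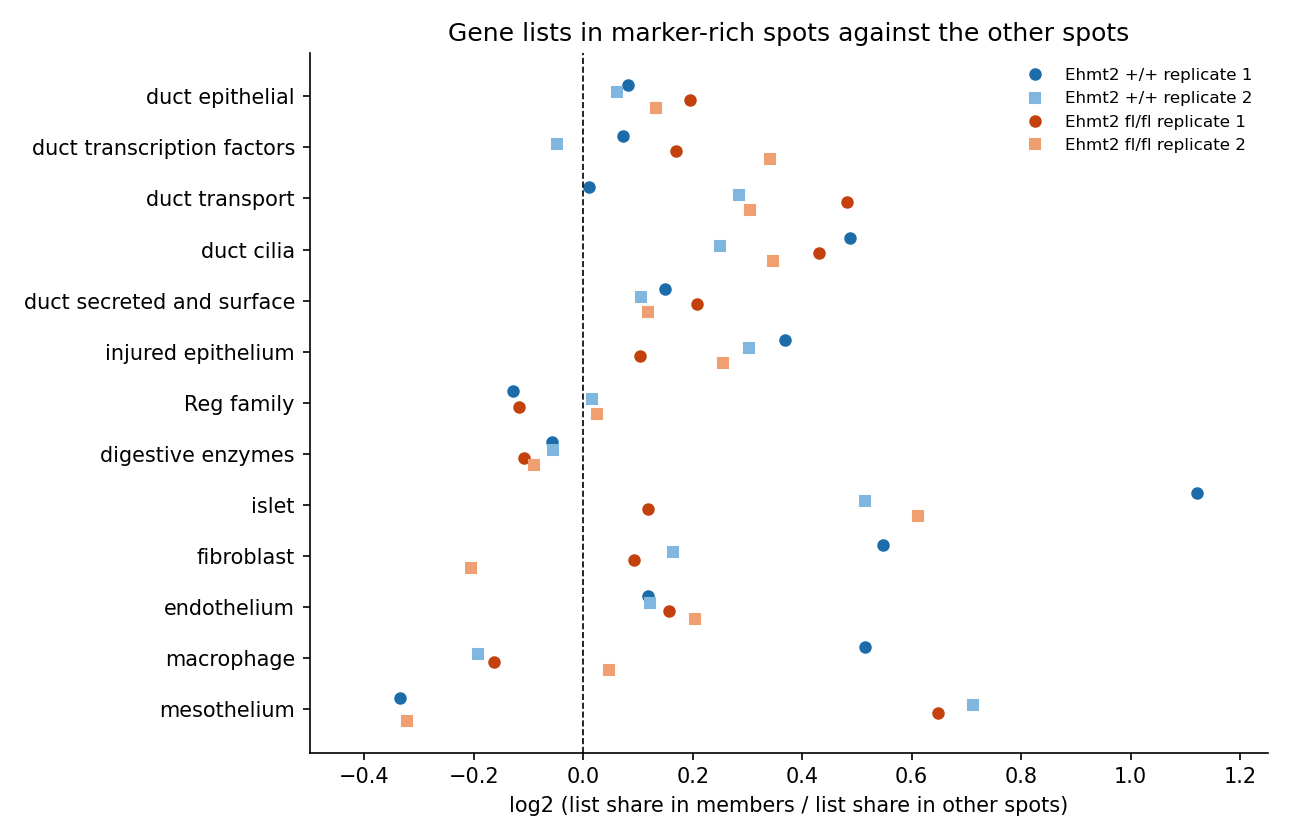
Each point is the log2 ratio of a gene list's UMI share in the marker-rich spots of a section to its share in the other spots of that section, with the dashed line at equal shares. The 5 duct lists held out from the choice lie close to the line, with the cilia list 1.19 to 1.40 times higher in the 4 sections. Among the lists drawn, the islet list of Ehmt2 +/+ replicate 1 lies farthest above the line, at 2.17 times.

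Across all 5856 genes outside the markers, those with the highest ratio in their lowest section were Pnmal2, Chga, Kif12, Ebp, Gcg, C2cd4b, Atp1b2, Ncoa5, Nid1, Inhbb, Marcksl1, Micall1, Thap12, Utp23 and Plpp6. Pnmal2 led with 1.63 to 2.07 times on 6 to 16 UMIs, and Chga, at 1.502 to 2.39 times, was the only one of the 15 with more than 200 UMIs in a section. Ebp, an enzyme of cholesterol synthesis, and Nid1, a basement membrane glycoprotein, were at 1.40 to 1.63 and at 1.35 to 2.15 times. The lowest ratios were those of Atad2, Coasy, Mus81, Slfn5, Cwc27, Hspb8, Mapk1ip1l, Mtmr10, Lars2 and Laptm5, with at most 0.745 times in any section. Kif12 was the only held-out duct gene among these 25. The genes whose spot-by-spot UMI shares followed each marker most closely differed from section to section. For Krt19 they were led by Ccdc28b (r = 0.447), Tfdp1 (0.240), Trrap (0.293) and Spef1 (0.366), and for Krt7 by Vegfb (0.410), Ilvbl (0.407), Acer2 (0.281) and Svbp (0.367), each over 200 spots of 1 section. None of the 5 closest genes of any marker recurred in another section, and with shared depth and so few UMIs these correlations are given as descriptions.

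The balance of the 2 keratins, whose counts chose the spots, is given as a description. Krt7 gave 18.3% (95% exact binomial interval 15.5 to 21.4) and 16.7% (13.3 to 20.6) of the Krt7 and Krt19 UMIs in the marker-rich spots of the Ehmt2 +/+ sections, and 57.4% (52.7 to 62.0) and 61.2% (56.5 to 65.8) in those of the Ehmt2 fl/fl sections. The groups did not overlap. The other spots, which the rule passed over, showed the same balance, with 20.5% and 14.9% in Ehmt2 +/+ and 53.0% and 60.0% in Ehmt2 fl/fl. There the difference of the means was 38.8 percentage points (17.7 ± 3.94 against 56.5 ± 4.97, SD, n = 2), with no test, since the rule used the same genes. It was 32.5 points within slide 1 and 45.1 points within slide 2. Only the UMIs of these 2 genes enter this share, and total UMIs and enzyme RNA are not part of its denominator. The part of depth and background in it was not tested.

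**Figure D3:**
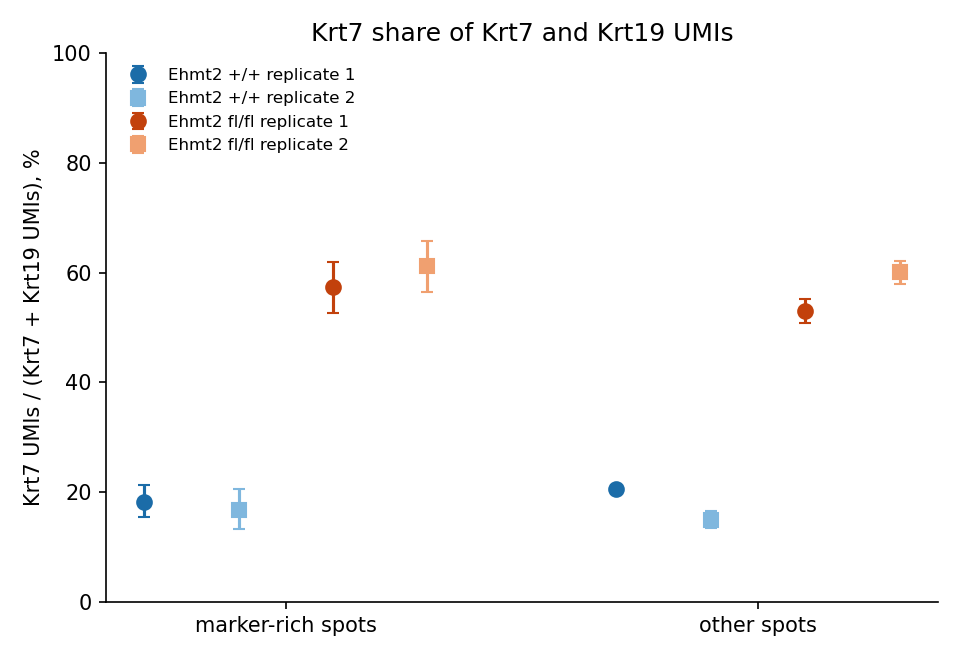
Each point is the percentage of Krt7 among the Krt7 and Krt19 UMIs of 1 section, in the marker-rich spots and in the other spots, with 95% exact binomial intervals, which cover counting error only. Both Ehmt2 fl/fl sections lie above 50% and both Ehmt2 +/+ sections below 21% in either set of spots.

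The digestive enzymes took less of the RNA of the marker-rich spots in Ehmt2 fl/fl, at 20.4% and 19.8%, than in Ehmt2 +/+, at 59.8% and 50.5%. The difference was -35.1 percentage points (exact two-sided permutation test over sections, p = 0.33, the smallest value that 2 sections against 2 allow). It was -39.5 points within slide 1 and -30.7 points within slide 2. In such sums, fewer cells of a type and less RNA per cell cannot be told apart.

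Counts summed over the marker-rich spots of each section were compared between genotypes with edgeR's quasi-likelihood test, scaled by the trimmed mean of M-values (TMM). Of 2615 genes tested, 84 were higher in Ehmt2 fl/fl (3.21%) and 75 lower (2.87%) at an adjusted p below 0.05 (Benjamini-Hochberg). A gene was tested if it reached a minimum CPM in at least 2 sections, and 1491 of the 2615 reached it in both Ehmt2 fl/fl sections but not in both Ehmt2 +/+ sections, among them 75 of the 84 genes called higher. By that rule a gene tested through Ehmt2 fl/fl alone was higher, in CPM, in both of these sections than in at least 1 Ehmt2 +/+ section, so counts over a tested list are given by the genotype through which its genes were tested. The TMM-scaled values of the 2 genotypes did not overlap for 28.6% of genes on the higher side and 26.5% on the lower side. The counts of calls depended on the scaling. The median log2 change over all genes was 0.02 with TMM and 1.49 without it, and changes are given relative to the TMM scale. Without TMM 1728 genes were called higher and 40 lower, and DESeq2 called 26 higher and 88 lower. Without Ehmt2 fl/fl replicate 1 edgeR called 0 genes (273 at an unadjusted p below 0.05), without Ehmt2 fl/fl replicate 2 it called 105, and without Ehmt2 +/+ replicate 2 it called 904.

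Of the 60 held-out duct genes, 27 were abundant enough to test. Of these, 7 were called higher in Ehmt2 fl/fl and 2 lower, against 3.21% and 2.87% of all genes tested. Of the 27, 14 were tested through Ehmt2 fl/fl alone, and 6 of the 7 higher calls were among these, the exception being Spp1. Over all genes tested through Ehmt2 fl/fl alone, 75 of 1491 were called higher. Of the 12 tested through both genotypes, 1 was called higher and 2 lower, against 9 higher and 58 lower of all 935 genes so tested. The genes called higher were secreted or membrane proteins. Mmp7, matrilysin, was at 4.69 and 29.7 TMM-scaled CPM in Ehmt2 +/+ and at 502 and 683 in Ehmt2 fl/fl, a log2 change of 5.77 ± 0.64 (SE; edgeR adjusted p = 0.006). Lcn2, the iron-siderophore binding lipocalin, was at 30.5 and 29.7 against 285 and 293, a log2 change of 3.23 ± 0.35 (edgeR adjusted p = 0.0059). Both genes were several-fold higher in each Ehmt2 fl/fl section than in either Ehmt2 +/+ section, though Mmp7 rested on 2 and 3 UMIs in Ehmt2 +/+. Tspan8 was at 9.38 and 39.6 against 235 and 199.9, and Spp1 at 298 and 356 against 1119 and 828. Ambp, the precursor of a plasma protease inhibitor, was at 11.7 and 9.90 against 106 and 60.4, and missed the threshold with the enzyme list left out (edgeR adjusted p = 0.058).

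The remaining pair came from the list of duct transport genes. Atp1b1, a subunit of the sodium pump, was at 79.7 and 99.0 TMM-scaled CPM in Ehmt2 +/+ and at 543 and 549 in Ehmt2 fl/fl, a log2 change of 2.65 ± 0.31 (edgeR adjusted p = 0.0065). Sctr, the secretin receptor of duct cells, was at 9.38 and 19.8 against 87.5 and 65.1, a log2 change of 2.66 ± 0.52 (edgeR adjusted p = 0.037). Its counts in Ehmt2 +/+ were 4 and 2 UMIs. The edgeR adjusted p of Sctr was 0.075 with the slide as a block and 0.070 with the enzyme list left out. Car2, at 14.1 and 49.5 against 124 and 135, missed the threshold (edgeR adjusted p = 0.055) and passed it with the slide as a block (0.045).

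Krt18 and Tff2 were lower in Ehmt2 fl/fl. Krt18 fell from 3278 and 2029 TMM-scaled CPM to 921 and 804, and Tff2 from 2141 and 1812 to 239 and 181, with log2 changes of -1.63 and -3.23 (edgeR adjusted p = 0.037 and 0.0038). Krt8, the partner of Krt18, was at 2244 and 1901 against 847 and 1176 and was not called (edgeR adjusted p = 0.081). Without TMM the log2 change of Krt8 was 0.42 and that of Krt18 -0.15, so the direction of Krt8 turned with the scaling while that of Tff2 stayed negative, at -1.78. Epcam, Cldn3, Cldn4 and Cldn7 had log2 changes between -0.31 and 0.10 with TMM and between 1.18 and 1.59 without it. For Krt19 and Krt7, whose counts chose the spots, the TMM-scaled values were 1341 and 3505 against 893 and 795 and 300 and 703 against 1202 and 1255. On this scale neither pair overlapped, and no test is given. In CPM Krt19 overlapped between the genotypes, and its log2 change was -1.51 with TMM and -0.15 without.

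As a summed share, the held-out list differed little between the genotypes, by 0.14 on the log2 scale of CPM (22127 and 18052 against 24869 and 19634 CPM; exact two-sided permutation test over sections, p = 0.667). This sum is dominated by Clu. Without Clu and Tff2 the list stood at 4930 and 5526 CPM in Ehmt2 +/+ and at 11193 and 9873 CPM in Ehmt2 fl/fl, which did not overlap (exact two-sided permutation test, p = 0.33). Outside the enzyme list the same genes stood at 12271 and 11164 CPM against 14054 and 12312, a log2 difference of 0.17 in place of 1.01. In CPM of the UMIs outside the enzyme list, the whole held-out list was lower in Ehmt2 fl/fl by -0.70 on the log2 scale. The list as a whole therefore had no direction that held across denominators.

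Epithelial injury genes were tested in 8 of 16 cases and 3 were called higher in Ehmt2 fl/fl, against 3.21% of all genes tested. Plaur and Tm4sf1 were tested through Ehmt2 fl/fl alone, where 75 of all 1491 genes were called higher. Cd44 was the 1 gene called among the 6 tested through both genotypes, where 9 of all 935 genes were called higher. Cd44 was at 176 and 188 TMM-scaled CPM against 502 and 563 (log2 change 1.56 ± 0.28, edgeR adjusted p = 0.029). Plaur, the urokinase receptor, was at 9.38 and 19.8 against 78.3 and 126, and Tm4sf1, an L6 membrane protein, at 32.8 and 49.5 against 235 and 126. With the enzyme list left out, Tm4sf1 missed the threshold (edgeR adjusted p = 0.052). Ccn1, a matricellular target of the Hippo effector Yap, was at 9.38 and 19.8 against 96.7 and 144 and was the called gene among 3 tested of the Notch and Hippo list, each of them tested through Ehmt2 fl/fl alone. Cldn18, a claudin of stomach and lung epithelium, was the only gastric gene tested, likewise through Ehmt2 fl/fl alone, at 4.69 and 9.90 against 129 and 167 (log2 change 4.56 ± 0.55, edgeR adjusted p = 0.0069), on 2 and 1 UMIs against 28 and 36. The other 5 gastric genes had at most 6 UMIs in any section.

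Acinar products fell. Of 24 enzyme genes tested, 18 were called lower in Ehmt2 fl/fl and 1, Prss1, higher, against 2.87% and 3.21% of all genes tested. These calls were all among the 22 tested through both genotypes, where 58 of all 935 genes were called lower and 9 higher. Cela2a, an elastase, fell from 130029 and 111612 TMM-scaled CPM to 6230.2 and 6556 (log2 change -4.24 ± 0.26, edgeR adjusted p = 0.0032), and the pancreatic lipase gene Pnlip from 8958 and 3623 to 378 and 367. Prss1, a trypsinogen, was at 940.1 and 683 against 3089.8 and 3868. The trypsinogen genes are close copies of each other, so the split of UMIs between Prss1 and its neighbours is uncertain. The Reg genes, which encode lectin-like proteins secreted by acinar cells in injury, were lower too. Of the 5, each tested through both genotypes, 4 were called, against the same 58 of 935. With the slide as a block the fifth, Reg3a, was also called (edgeR adjusted p = 0.024), as were the enzyme list genes Pnliprp2 (0.016) and Spink1 (0.022). Reg2 fell from 3571 and 1703 to 101 and 88.3 (log2 change -4.80 ± 0.46) and Reg3b from 7235 and 6168 to 479 and 437. Without TMM the log2 changes of Cela2a, Pnlip, Reg2 and Reg3b were -2.79, -2.57, -3.30 and -2.42. Chst2, a carbohydrate sulfotransferase, completed the 5 largest called decreases, at 148 and 139 TMM-scaled CPM against 13.8 and 4.65, on 3 and 1 UMIs in Ehmt2 fl/fl.

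**Figure D4:**
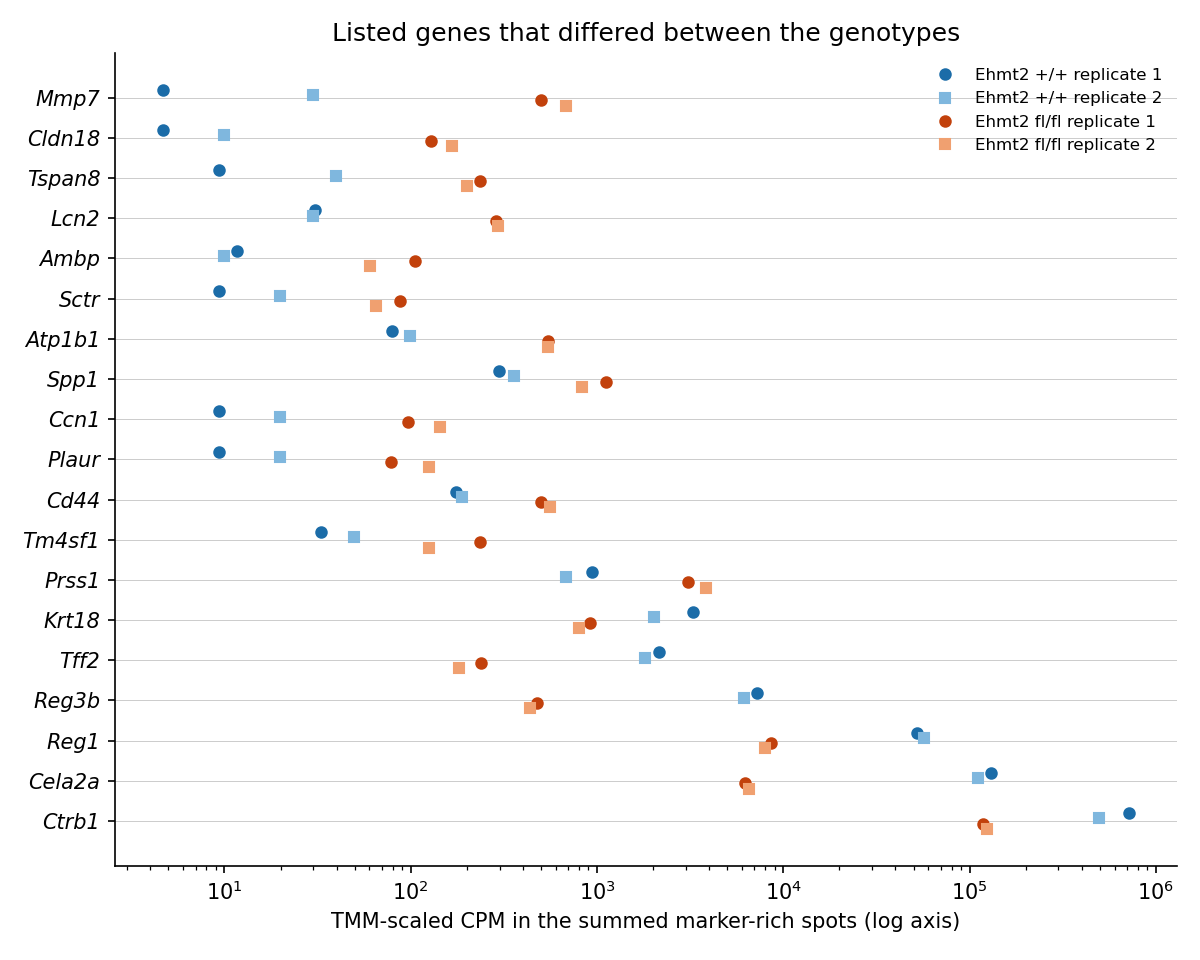
Each point is the TMM-scaled CPM of a listed gene in the summed marker-rich spots of 1 section, on a log axis, for examples of the listed genes that passed the edgeR test. The Ehmt2 fl/fl sections lie to the right for Mmp7 to Prss1 and to the left for Krt18 to Ctrb1, and in each of these genes the genotypes do not overlap.

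Among genes of other cell types in the same spots, none tested in the macrophage, fibroblast or islet lists was called. All 6 macrophage genes tested were tested through Ehmt2 fl/fl alone. C1qc, a complement subunit of tissue macrophages, was at 18.8 and 9.90 TMM-scaled CPM against 55.3 and 74.4 (edgeR adjusted p = 0.062). The whole list of 10, of which 1 gene was at 0 in Ehmt2 +/+ replicate 2, stood at 125 and 133 CPM against 775 and 767 CPM, with Cd68 or C1qa the most abundant gene in each section. In CPM of the UMIs outside the enzyme list it stood at 311 and 269.6 against 973 and 956. The fibroblast list stood at 639 and 684 CPM against 2315 and 1788 CPM, which is 1.62 on the log2 scale, near the median of 1.49 over all genes without TMM. It was 0.78 in CPM outside the enzyme list. The 5 islet genes tested overlapped between the genotypes. With the slide as a block, Iapp, the amylin gene, was lower in Ehmt2 fl/fl (edgeR adjusted p = 0.031, against 0.225 without it). The part of these cell types in the duct gene values was not tested.

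The 5 highest called log2 changes belonged to predicted genes on chromosome Y, which the annotation places there: Gm20854, Gm20914, Gm21118, Gm20825 and Gm21310. Each of them was tested through Ehmt2 fl/fl alone. Gm20854 had 0 and 0 UMIs in Ehmt2 +/+ and 59 and 170 in Ehmt2 fl/fl. Over all 725 features on chromosome Y the marker-rich spots held 2 and 0 UMIs in Ehmt2 +/+ and 237 and 613 in Ehmt2 fl/fl, and the other spots 24 and 46 against 8753 and 22256. Chromosome Y holds many near-identical gene copies, so the split between these 5 genes is uncertain. Ddx3y, Eif2s3y, Kdm5d and Uty, single-copy Y genes of all male tissues, summed to 1 and 0 UMIs against 10 and 7. Xist was at 0 in the marker-rich and the other spots of every section. Whether the assay held a probe for Xist was not analysed here, so its absence does not inform on sex. The labels give no sex, and in these 4 animals a difference that follows the Y chromosome and one that follows Ehmt2 cannot be told apart. Off chromosome Y, 154 genes were called, 79 of them higher, among them Mmp7, Ankrd1, Adamtsl4 and Cldn18, each tested through Ehmt2 fl/fl alone. The edgeR adjusted p of Adamtsl4 was 0.053 with the slide as a block and 0.062 with the enzyme list left out.

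Whether the genotypes differed more in the marker-rich spots than elsewhere was tested as an interaction in edgeR over the 8 sums of marker-rich and other spots. Of 19979 genes, 0 were called (0%), with 1397 at an unadjusted p below 0.05, and DESeq2 also called 0 (160 unadjusted). These interactions too are relative to the TMM scale. Epcam had an interaction of 0.51 on the log2 scale. Its ratios of marker-rich to other spots were 1.20 and 1.05 in Ehmt2 +/+ and 1.16 and 1.03 in Ehmt2 fl/fl. Without TMM, edgeR called 0 genes with a higher ratio in Ehmt2 fl/fl and 2 with a lower one. The number of calls also changed with the section left out, which leaves 1 section in a genotype. The gene with the smallest p was Aldh3a2, an aldehyde dehydrogenase, with an interaction of 2.99 ± 0.69 on the log2 scale (edgeR adjusted p = 0.334). With all 4 sections, no genotype difference given above was shown to be particular to the marker-rich spots.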

How the data were processed

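Probe-based spatial transcriptomes of 4 sections were deposited as UMI counts per gene and spot. Per the labels and methods, the authors aligned the reads to mm10 with Space Ranger 2.0.1, and the counts are raw and not normalized. Spots, members and gene lists were chosen with earlier results of these data known. Of 32589 features, 304 marked deprecated counted toward the totals of the rule and were left out of tests. Counts were summed over the marker-rich and the other spots of each section, since spots are not replicates. No doublet caller was run. Genotypes (2 sections each) were compared with edgeR 4.0.16 in R 4.3.3 (quasi-likelihood test with TMM scaling, genes kept by filterByExpr at min.count 10, adjusted p below 0.05 after Benjamini and Hochberg), with DESeq2 1.42.0 as an alternative. The code was tested on simulated data. Single values were compared by an exact permutation test over sections. P-values measure the spread between these sections. Each label names 1 animal. Intervals are 95% and cover counting error only.

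Named genes were the markers and Ehmt2, listed genes, the 15 highest and 10 lowest ratios of marker-rich to other spots, the 5 largest called changes each way whose groups did not overlap, and the 5 genes most correlated with each marker per section. Of 258 listed genes, 257 were in the files. Alternatives changed the number of spots, the UMI minimums, the denominator, the marker set, the scaling, the filter and the sections used. The slide block, the lists without Clu and Tff2 and the insulin and collagen pairs were chosen after seeing the data. Some genes that met these rules are not reported here.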

Additional observations from a re-analysis of the deposited data

Results flagged for a closer look

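Spots under 500 UMIs, which entered no comparison, also held transcripts of the 4 markers. They carried 134 marker UMIs in Ehmt2 +/+ replicate 1, which was 1.38% of that section's marker UMIs. In Ehmt2 +/+ replicate 2 they carried 382, or 13.1%. In the Ehmt2 fl/fl sections they carried 129, or 4.67%, in replicate 1 and 180, or 5.66%, in replicate 2. Whether these molecules lay in thin tissue or outside it was not tested.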

How the results depend on the processing

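The digestive enzyme share stayed lower in Ehmt2 fl/fl under all 16 alternatives, between -39.7 and -29.8 percentage points. The 159 genes called between genotypes became 72 with the 100 highest-scoring spots, 66 with 400, 312 with a higher UMI minimum per spot, 256 with at least 3 marker UMIs, 250 with enzymes left out of the score, 97 with spots thinned to 500 UMIs, 52 without Krt19 in the rule, 1768 without TMM, 57 without the filter and 95 with the enzymes left out. Leaving out 1 section gave 0 to 904. The slide as a block gave 136, of which 123 were shared. The interaction gave 2 genes without TMM and 0 to 1580 when 1 section was left out. The log2 ratio of the held-out duct genes, 0.15, became 0.037 without Krt19 in the rule, and 0.12 to 0.17 when 1 section was left out. That of the mesothelial genes, 0.18, lay between -0.35 and 0.56 over the other rules and between -0.0031 and 0.35 when 1 section was left out. The genotype difference of the held-out duct list, 0.14, turned to -0.70 in CPM of the UMIs outside the enzymes, to -0.0020 without Ehmt2 +/+ replicate 2 and to -0.026 without Ehmt2 fl/fl replicate 1, with 0.32 the highest when 1 section was left out. It was 0.35 without Krt19 in the rule, 1.01 without Clu and Tff2, and 0.17 and 0.12 within the slides. The causes were not tested. Replicate numbers were given in accession order and coincide with the slides, which paired the sections. The slide as a block is the paired analysis given above. With 2 sections a genotype, no exact test could go below 0.33, and the 3 shallower sections limit genes of few UMIs.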

Other observations

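Further genes that were called higher in Ehmt2 fl/fl off chromosome Y belonged to no list. Those named here were each tested through Ehmt2 fl/fl alone. Ankrd1, a target of the Hippo effector Yap, had 1 and 0 UMIs in the marker-rich spots of Ehmt2 +/+ and 16 and 20 in those of Ehmt2 fl/fl. Cxcl14, a chemokine, was at 32.8 and 49.5 TMM-scaled CPM against 483.5 and 595 (log2 change 3.82 ± 0.37, edgeR adjusted p = 0.0038). The Wnt ligand gene Wnt7b had 2 and 0 UMIs against 13 and 15. Its edgeR adjusted p was 0.061 with the slide as a block and 0.072 with the enzyme list left out. Without Ehmt2 fl/fl replicate 1, edgeR called none of these.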
